A study of Mus musculus with 6 samples.

Results

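The TRBV13 family of T cell receptor (TCR) beta chain variable genes was followed through 3 single-cell TCR libraries of CD4 T cells that bind a self peptide of the eye. The family has 3 members, TRBV13-1, TRBV13-2 and TRBV13-3, which older naming calls V beta 8. A cell was counted as a TRBV13 cell when its leading productive TRB contig, the one with most unique molecular identifiers (UMIs), carried one of these genes and when it also had a productive TRA contig. By this rule 179 of 970 paired cells belonged to the family, and they formed 149 of 691 clonotypes. Cells of 1 library whose alpha and beta chains both matched in V gene, in J gene and in the CDR3 bases were taken as 1 clonotype. Among the 21 V beta genes found in paired cells, the 3 members were fixed by name and not by any measured value.

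All mice were AireGW/+ Lyn-/-, so no library came from wild-type animals. The GW allele impairs Aire, which drives display of tissue antigens in the thymus, and the Lyn-/- allele removes the kinase Lyn. The cells bound the P2/I-Ab tetramer, which presents the P2 epitope of the retinal protein IRBP, and were sorted as CD4 T cells at 9 weeks of age from lymph nodes that were pooled over 3 sites, the axilla, the submandibular region and the part of the neck that drains the eye. Uveitis dataset 1 and uveitis dataset 2 came from mice with uveitis, pooled from 7 mice in one and 8 in the other, and the library without uveitis came from a pool of 16 mice. The data held no map from cells to mice, so a library was 1 sample and cells of a library were not replicates. Receptor contigs do not measure marker genes such as Cd4, so the cell type rests on the sort.

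A beta chain is assembled in the thymus from a V, a D and a J gene segment, and the junction that they form, with bases trimmed and added between them, is the CDR3 loop that touches the peptide. The V segment supplies the CDR1 and CDR2 loops, which mostly contact the MHC molecule, and the start of CDR3. V beta 8 chains are among the common beta chains of C57BL/6 CD4 T cells, are recognised by several bacterial superantigens, and are one of the main beta chain groups paired with the invariant alpha chain of natural killer T (NKT) cells.

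The 3 genes lie near each other on the plus strand of chromosome 6 in GRCm38. Trbv13-1 spans chr6:41116007-41116468, Trbv13-2 chr6:41121396-41121832 and Trbv13-3 chr6:41130147-41130585, each with a short first exon and a second exon of 294 bases. From the start of Trbv13-1 to the end of Trbv13-3 is 14579 bases, and 402615 bases separate Trbv13-3 from the first D segment. In the second exon, TRBV13-2 and TRBV13-3 had 91.8% identical bases, TRBV13-1 and TRBV13-2 88.8%, and TRBV13-1 and TRBV13-3 86.1%. The germline V end that each gene brings into CDR3 is read from the conserved cysteine codon. It is shown because it tells TRBV13-2 from the other members within the CDR3. The codon that differs is in capitals, and the 2 D segments follow.
TRBV13-1 V end: tgtgccagcAGTgatg
TRBV13-2 V end: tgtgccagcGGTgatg
TRBV13-3 V end: tgtgccagcAGTgatg
TRBD1: gggacagggggc
TRBD2: gggactgggggggc
The V ends of TRBV13-1 and TRBV13-3 were the same 16 bases. TRBV13-2 differed from TRBV13-1 by A10G, counted from 1 at the first base of the cysteine codon, which gives a glycine in place of a serine as the fourth residue of CDR3.

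The 3 libraries held 212, 365 and 512 cell barcodes (uveitis dataset 1, uveitis dataset 2 and without uveitis, an order kept below), 176, 324 and 470 paired cells, and 138, 142 and 411 clonotypes. Their contigs carried 5302, 7439 and 21408 UMIs. Cells with exactly 1 productive chain of each kind numbered 147, 269 and 375, which made 416 in the uveitis datasets together. The only barcode shared between libraries was 1 between uveitis dataset 2 and the library without uveitis, and it was not that of a TRBV13 cell in both. Intervals below are 95% Clopper-Pearson intervals and cover counting error only. Those on cells treat each cell as a separate draw. Cells of 1 clonotype are not, so these intervals are too narrow where clonotypes are expanded. Limits given for a count of 0 are not such intervals but 3 counts over the number of cells. No test could separate mice with uveitis from mice without: an exact permutation test of 2 pools against 1 cannot go below p = 0.333.

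Every member contig was accounted for. The files held 43, 52 and 109 productive TRBV13 contigs in 43, 52 and 107 barcodes. Of these, 37, 47 and 95 were the leading TRB of a paired cell. A further 4, 1 and 7 were the weaker TRB of a paired cell, and 2, 4 and 7 lay in cells without a productive TRA. The weaker contigs had a median of 4, 4 and 5 UMIs, where the leading TRB of the same cells had medians of 12.5, 5 and 8 UMIs. The library without uveitis also held 4 TRBV13 contigs not called productive, and the uveitis datasets held none.

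The family took between 14.5% and 25.4% of a library by either count, and TRBV13-2 led the other two members in all 3 libraries. In uveitis dataset 1 the family took 37 of 176 paired cells, 21.0% (interval 15.3 to 27.8%). In uveitis dataset 2 it took 47 of 324 cells, 14.5% (interval 10.9 to 18.8%). Without uveitis it took 95 of 470 cells, 20.2% (interval 16.7 to 24.1%). Uveitis dataset 2 was the lowest of the 3, and all 3 intervals overlapped. Over both uveitis datasets the family averaged 17.8% ± 4.61 (SD, n = 2 pools), which lay 2.45 percentage points from the value without uveitis, where the uveitis datasets lay 6.52 points from each other.

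Counted by clonotypes, so that an expanded clone weighs as much as a single cell, the family took 25.4% (interval 18.3 to 33.5%), 20.4% (interval 14.1 to 28.0%) and 20.7% (interval 16.9 to 24.9%). Uveitis dataset 2 and the library without uveitis were then nearly level. The mean of the uveitis datasets, 22.9% ± 3.49 (SD, n = 2 pools), differed from the library without uveitis by 2.21 points, less than the gap of 4.94 points between the uveitis datasets.

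**Figure D1:**
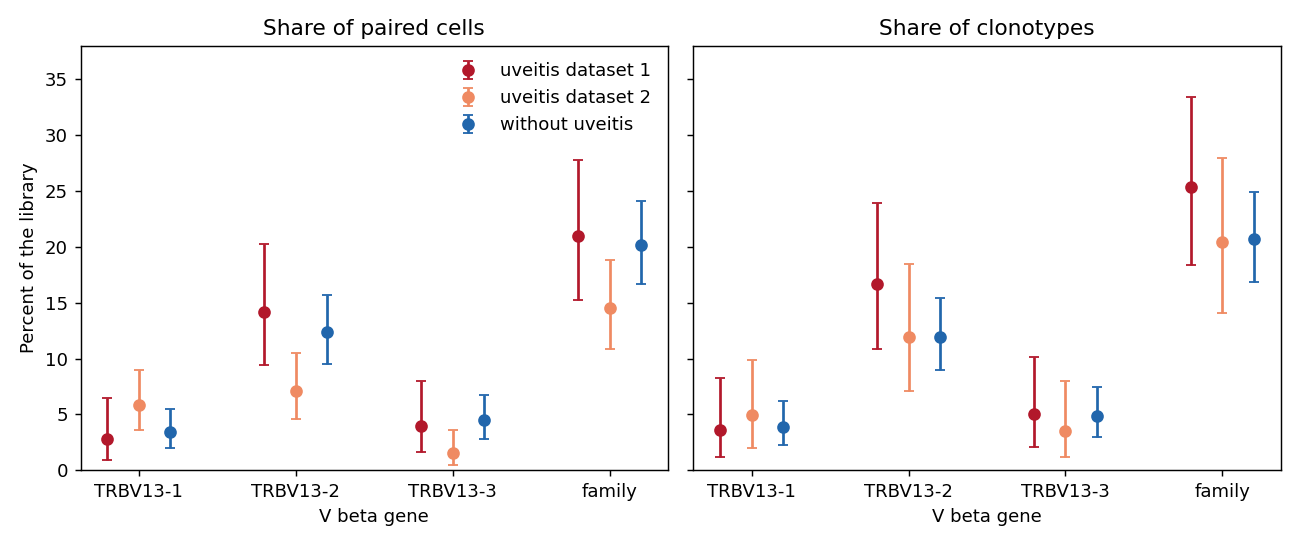
Share of paired cells (left) and of clonotypes (right) that used each TRBV13 gene and the family as a whole, in percent of each library. Points are libraries and bars are 95% Clopper-Pearson intervals. TRBV13-2 is the highest member in each library, and the family points run from 14.5 to 21.0% of cells and from 20.4 to 25.4% of clonotypes.

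TRBV13-2, the former V beta 8.2, made 23 of 35, 17 of 29 and 49 of 85 family clonotypes, which is 65.7% (interval 47.8 to 80.9%), 58.6% (interval 38.9 to 76.5%) and 57.6% (interval 46.4 to 68.3%). Among all V beta genes of a library it ranked first, second (level with TRBV4) and first by clonotypes. By cells it ranked second, eighth and first, with 25, 23 and 58 cells. In uveitis dataset 2 it thus stood lower by cells than by clonotypes, with 7.10% of the one and 12.0% of the other.

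TRBV13-1, the former V beta 8.3, made 5, 7 and 16 clonotypes, or 14.3%, 24.1% and 18.8% of the family. Its cells numbered 5, 19 and 16. The 2 measures parted in uveitis dataset 2 only, where 19 cells were 40.4% of the family's cells (interval 26.4 to 55.7%). TRBV13-3, the former V beta 8.1, made 7, 5 and 20 clonotypes, or 20%, 17.2% and 23.5% of the family, in 7, 5 and 21 cells. TRBV13-1 and TRBV13-3 ranked from eighth to twelfth by clonotypes, and their intervals overlapped in each library.

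By clonotype share over the 3 libraries, the V beta genes nearest to TRBV13-2 were TRBV3, at a summed absolute difference of 8.67 percentage points, and TRBV20 at 13.8 points. The nearest to TRBV13-3 were TRBV1 at 1.43 points and TRBV16 at 3.10 points. The same pair was nearest to TRBV13-1, at 3.81 and 4.03 points. With 3 libraries, this likeness is a description of levels and no more.

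**Figure D2:**
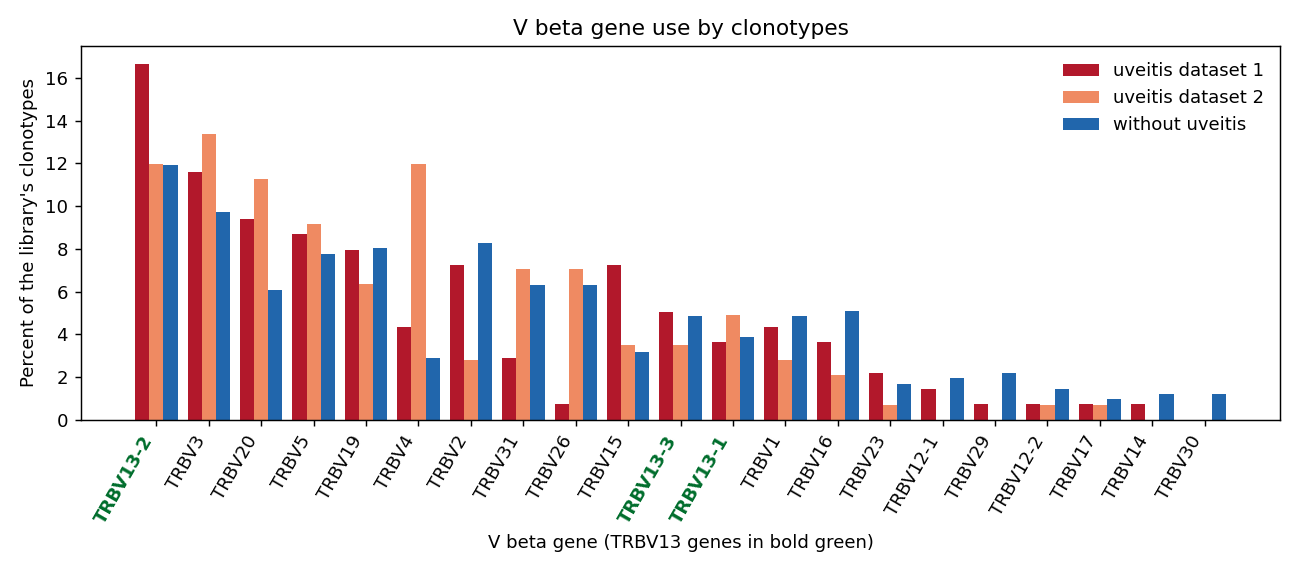
Share of each library's clonotypes (vertical axis, percent) that used each V beta gene (horizontal axis, by mean share), with bars for the 3 libraries. TRBV13-2 stands first on the mean of the 3 libraries and TRBV13-1 and TRBV13-3 stand mid-order, each at 3.52 to 5.07% of clonotypes.

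Most TRBV13 clonotypes were single cells. Expanded cells, those in a clonotype of more than 1 cell, made 4 of 37 family cells in uveitis dataset 1 (10.8%, interval 3.03 to 25.4%), 25 of 47 in uveitis dataset 2 (53.2%, interval 38.1 to 67.9%) and 15 of 95 without uveitis (15.8%, interval 9.12 to 24.7%). The uveitis datasets averaged 32.0% ± 30.0 (SD, n = 2 pools) and lay on either side of the library without uveitis. That order depended on the clonotype definition: with clonotypes set by the TRB alone and cells without a TRA included, the shares were 42.1%, 64.7% and 25.5%, and both uveitis datasets lay above the library without uveitis. Leaving out uveitis dataset 1 gives 53.2%, and leaving out uveitis dataset 2 gives 10.8%.

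Among the other V beta genes of the same libraries, 33.8% (interval 26.0 to 42.3%), 69.7% (interval 63.9 to 75.0%) and 17.3% (interval 13.6 to 21.6%) of cells were expanded. The family was thus below the rest in 3 of 3 libraries, by 23.0, 16.5 and 1.54 percentage points. Their mean difference was -13.7 points ± 11.0 (SD, n = 3 libraries). An exact sign-flip permutation test over the 3 libraries gave p = 0.25 (two-sided), which is the smallest p it can give. With clonotypes set by the TRB alone, a comparison added after the data were seen, the differences were -18.6, -9.97 and 1.69 points, so the direction turned in the library without uveitis. By clonotypes the shares that were expanded were closer, at 5.71% against 10.7%, 24.1% against 25.7% and 5.88% against 4.91%. The largest family clonotypes held 2, 11 and 5 cells, where the largest of other V beta genes held 12, 37 and 18 cells.

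The largest TRBV13 clonotype used TRBV13-1 and TRBJ2-7 with TRAV7-1 and TRAJ33, in 11 cells of uveitis dataset 2, which is 3.40% of that library's cells (interval 1.71 to 5.99%). Its TRB UMIs ranged from 5 to 20 per cell and its TRA UMIs from 1 to 13. It held 11 of the 19 TRBV13-1 cells of that library, and without it the family's expanded share in uveitis dataset 2 was 38.9%. TRBV13-1 had no expanded cell in uveitis dataset 1 (0 of 5 cells, which allows a share of up to 60%) or without uveitis (0 of 16 cells, up to 18.8%).

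The second clonotype of uveitis dataset 2 used TRBV13-2 and TRBJ2-1 with TRAV8D-2 and TRAJ11, in 4 cells. The other 5 expanded family clonotypes of this library had 2 cells each, 2 with TRBV13-1 and 3 with TRBV13-2, and 4 of these 5 used TRBJ2-1. Of these 4, the 2 with TRBV13-2 had the same CDR3 beta sequence and different alpha chains. Without uveitis, the largest was TRBV13-2 and TRBJ1-6 with TRAV12D-3 and TRAJ23, in 5 cells. Next came TRBV13-2 and TRBJ2-4 with TRAV3D-3 and TRAJ21, in 4 cells, then TRBV13-2 and TRBJ2-5 with TRAV3D-3 and TRAJ21 in 2 cells, with 2 more clonotypes of 2 cells. In uveitis dataset 1 the 2 expanded clonotypes had 2 cells each and both used TRBV13-2, with TRBJ2-4 and TRAV12D-3 in one and with TRBJ1-6 and TRAV5-1 in the other. TRBV13-3 was expanded in 1 clonotype of 2 cells, without uveitis, and in 0 of 7 and 0 of 5 cells of the uveitis datasets, which allows shares of up to 42.9% and 60%.

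The CDR3 beta sequences of these leading clonotypes are shown to give their junctions, with capitals for the bases that matched neither the germline V end nor the germline J.
Uveitis dataset 2, TRBV13-1/TRBJ2-7, 11 cells: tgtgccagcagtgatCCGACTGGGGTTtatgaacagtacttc
Uveitis dataset 2, TRBV13-2/TRBJ2-1, 4 cells: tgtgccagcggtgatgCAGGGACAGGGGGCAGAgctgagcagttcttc
Without uveitis, TRBV13-2/TRBJ1-6, 5 cells: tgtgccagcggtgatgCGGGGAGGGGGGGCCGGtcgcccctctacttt
Without uveitis, TRBV13-2/TRBJ2-4, 4 cells: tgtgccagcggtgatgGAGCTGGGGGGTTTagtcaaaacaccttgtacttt
Without uveitis, TRBV13-2/TRBJ2-5, 2 cells: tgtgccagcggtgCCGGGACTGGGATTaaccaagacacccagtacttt
Uveitis dataset 1, TRBV13-2/TRBJ2-4, 2 cells: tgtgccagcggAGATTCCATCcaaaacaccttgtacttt
Uveitis dataset 1, TRBV13-2/TRBJ1-6, 2 cells: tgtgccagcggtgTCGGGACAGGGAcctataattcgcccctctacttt
In 3 of these 7, all with TRBV13-2, the 16 bases of the V end were kept whole. The second sequence held all 12 bases of TRBD1.

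**Figure D3:**
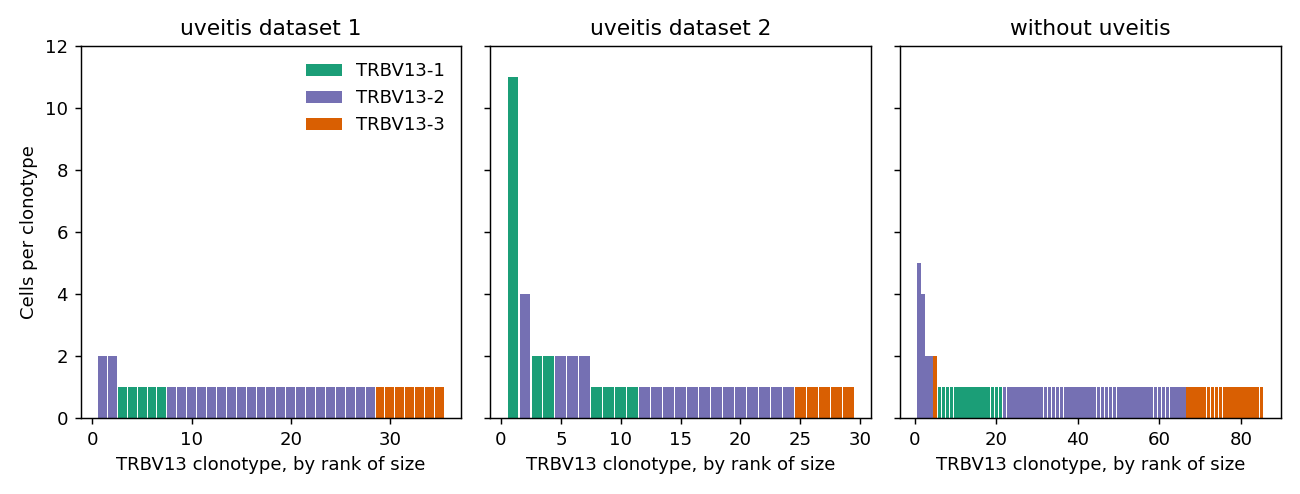
Cells per clonotype (vertical axis) for each TRBV13 clonotype ordered by size (horizontal axis) in the 3 libraries, coloured by gene. The 11-cell TRBV13-1 clonotype of uveitis dataset 2 stands above the rest, and all other TRBV13 clonotypes have at most 5 cells.

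Molecule counts per chain lay close to those of the other V beta genes in each library. TRBV13 cells had a median of 11, 11 and 16 TRB UMIs, against 12, 10 and 16 in cells of the other V beta genes. Single TRBV13 cells ranged from 1 to 47, from 2 to 46 and from 1 to 94 UMIs. Median TRA UMIs were 5, 5 and 8 in family cells and 5, 4 and 7 in the others.

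J beta partners were counted next. The J genes of the second cluster (TRBJ2) were in 26 of 35 family clonotypes (74.3%, interval 56.7 to 87.5%), 25 of 29 (86.2%, interval 68.3 to 96.1%) and 53 of 85 (62.4%, interval 51.2 to 72.6%). Both uveitis datasets lay above the library without uveitis, with a mean of 80.2% ± 8.43 (SD, n = 2 pools), though with 2 pools against 1 this was not testable. The other V beta genes had the same order of groups, with 77.7%, 71.7% and 65.0%. Family minus other was -3.38, 14.5 and -2.68 percentage points, so the direction was not shared by the 3 libraries.

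By gene, TRBJ2-7 and TRBJ2-5 led in uveitis dataset 1 with 9 and 6 family clonotypes, TRBJ2-1 and TRBJ2-7 in uveitis dataset 2 with 13 and 6, and TRBJ2-1 and TRBJ2-5 without uveitis with 13 each. TRBJ2-1 in uveitis dataset 2 took 44.8% of family clonotypes (interval 26.4 to 64.3%) and 11.5% of the clonotypes of other V beta genes (interval 6.27 to 18.9%). Counted over distinct CDR3 beta sequences it was 10 of 25, or 40%. In the other libraries the same gene took 11.4% against 13.6% in uveitis dataset 1 and 15.3% against 9.20% without uveitis, with overlapping intervals in both. TRBJ1-4 in uveitis dataset 1 was in 5 of 35 family clonotypes and 1 of 103 others, but those 5 held only 3 different CDR3 beta sequences.

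**Figure D4:**
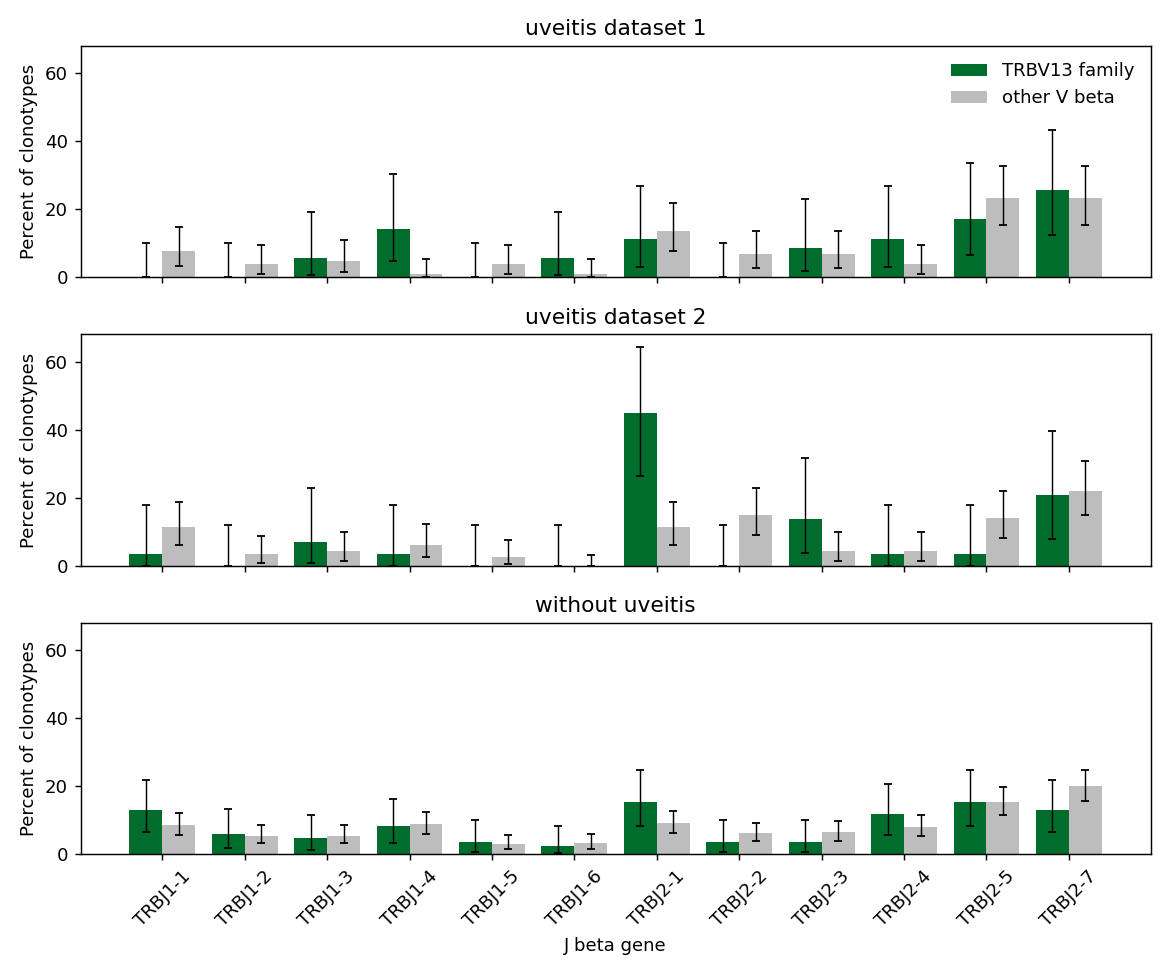
J beta gene use in percent of clonotypes (vertical axes) for the TRBV13 family (green) and for other V beta genes (grey), 1 panel per library, with 95% Clopper-Pearson intervals. TRBJ2-1 in uveitis dataset 2 is the tallest family bar at 44.8%, against 11.5% for other V beta genes.

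CDR3 beta loops of the family were longer on average than those of the other V beta genes in 3 of 3 libraries. Family clonotypes had 14.8 ± 1.70, 14.4 ± 1.38 and 14.1 ± 1.41 residues (mean ± SD over clonotypes), and the others had 14.0 ± 1.18, 13.8 ± 1.62 and 13.7 ± 1.49. The differences were 0.781, 0.643 and 0.381 residues, with a mean of 0.602 ± 0.203 (SD, n = 3 libraries). The exact sign-flip permutation test again gave its smallest possible value, p = 0.25 (two-sided). By member, the means ran from 13.5 to 15 residues, and each exceeded that of the other V beta genes of its library except TRBV13-1 without uveitis, at 13.5 against 13.7. Over distinct CDR3 beta sequences the means were 14.5 against 14.0, 14.4 against 13.7 and 14.0 against 13.7 residues.

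The shape of the length distribution also changed. In uveitis dataset 1 the family peaked at 16 residues, with 17 of 35 clonotypes (48.6%, interval 31.4 to 66.0%), where other V beta genes had 8 of 103 (7.77%, interval 3.41 to 14.7%). Several clonotypes there shared a beta chain, and over distinct CDR3 beta sequences the count was 10 of 27 (37.0%, interval 19.4 to 57.6%) against 6 of 81 (7.41%). In uveitis dataset 2 and without uveitis the family peaked at 14 residues, with 15 of 29 and 27 of 85 clonotypes. At 16 residues these libraries had 2 of 29 and 10 of 85 family clonotypes.

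**Figure D5:**
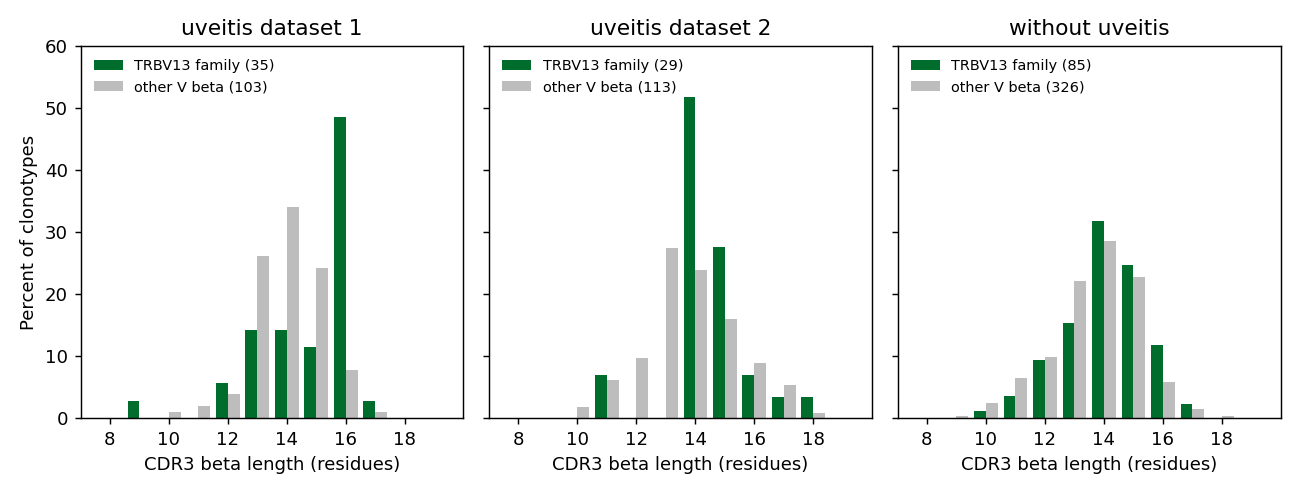
CDR3 beta length in residues (horizontal axes) against percent of clonotypes (vertical axis) for the TRBV13 family (green) and other V beta genes (grey) in the 3 libraries, with the number of clonotypes in each legend. The family peak is at 16 residues in uveitis dataset 1 and at 14 in the other libraries.

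Members kept most of their germline V end. The median clonotype matched 14, 13 and 14 of the 16 germline bases, and 10 of 35, 4 of 29 and 25 of 85 clonotypes matched all 16. A match can include bases added by chance, so these counts are upper values. The residue that tells TRBV13-2 from its neighbours, glycine as the fourth of CDR3, was present in 85 of 89 TRBV13-2 clonotypes, and the germline serine in 26 of 28 TRBV13-1 and 26 of 32 TRBV13-3 clonotypes.

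The fifth residue, germline aspartate in all members, was kept in 23 of 35 family clonotypes (65.7%, interval 47.8 to 80.9%), 9 of 29 (31.0%, interval 15.3 to 50.8%) and 44 of 85 (51.8%, interval 40.7 to 62.7%). Over distinct CDR3 beta sequences the shares were 63.0%, 32% and 55%. The uveitis datasets were again the extremes, with the library without uveitis between them. Between the parts that matched V and J lay a median of 12, 11 and 11 bases.

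Alpha chain partners were spread over many genes. The 35, 29 and 85 family clonotypes used 23, 20 and 46 TRAV genes, of which 17, 16 and 27 were used once, and 22, 17 and 31 TRAJ genes. Many mouse TRAV genes have near-identical copies with D or N in their names, so the reads may not tell copies apart. TRAV12D-3 led in uveitis dataset 1 with 7 clonotypes (20%, interval 8.44 to 36.9%), against 3 of 103 among other V beta genes, followed by TRAV9D-1 with 3 and by TRAV14N-1, TRAV4N-4, TRAV5-4 and TRAV9-1 with 2 each. TRAV9-1 led in uveitis dataset 2 with 5 clonotypes (17.2%), against 17 of 113 others (15.0%), followed by TRAV4-4-DV10 and TRAV6-6 with 3 each. Without uveitis TRAV3D-3 led with 6 (7.06%), against 6 of 326 others (1.84%), then TRAV4-4-DV10 and TRAV7D-2 with 5 each. A different TRAV gene thus led in each library. These counts are of clonotypes and not of distinct CDR3 alpha sequences. The 3 TRAV9D-1 clonotypes shared 1 CDR3 alpha sequence, and 3 of the 6 TRAV3D-3 clonotypes without uveitis shared another.

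The TRAJ gene in most family clonotypes was TRAJ23 in uveitis dataset 1 (4 clonotypes), ahead of TRAJ13, TRAJ22 and TRAJ34 (3 each). In uveitis dataset 2 TRAJ11, TRAJ30 and TRAJ43 were level (3 each). Without uveitis TRAJ21 led (8), ahead of TRAJ23 and TRAJ31 (6 each). TRAJ21 without uveitis was in 9.41% of family clonotypes (interval 4.15 to 17.7%) and 2.15% of others (interval 0.868 to 4.37%). Of its 8 family clonotypes, 3 shared 1 CDR3 alpha sequence, and the 3 TRAJ34 clonotypes of uveitis dataset 1 shared another.

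No TRBV13 cell had an invariant alpha chain as its leading TRA. Weaker TRA contigs were not searched. The cells were sorted by P2/I-Ab binding, so these counts do not describe unsorted CD4 T cells. The NKT pairing, TRAV11 or TRAV11D with TRAJ18, was in 0 of 37, 0 of 47 and 0 of 95 family cells, which allows shares of up to 8.11%, 6.38% and 3.16%. The pairing of mucosal-associated invariant T cells, TRAV1 with TRAJ33, was also in 0 cells of each. TRAJ33 itself was in 11 cells of uveitis dataset 2, all of them paired with TRAV7-1 in the largest clonotype.

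Among TRBV13 cells, no clonotype and no leading CDR3 nucleotide sequence, alpha or beta, was found in more than 1 library. Sharing was also rare outside the family, where the 3 pairs of libraries had 0 clonotypes, 1, 0 and 0 CDR3 beta and 3, 1 and 2 CDR3 alpha nucleotide sequences in common, out of 80 to 320 per library. One CDR3 beta was shared as a protein sequence, between uveitis dataset 2 (5 cells) and the library without uveitis (1 cell), and 1 CDR3 alpha, between uveitis dataset 1 and the library without uveitis. Both were encoded by different nucleotides in each library. Between libraries, 8 of 1424 pairs of TRBV13-2 CDR3 beta protein sequences differed by at most 2 residues at equal length, or 5.62 per 1000 pairs. Over the 18 other V beta genes, each compared within itself, it was 30 of 5055 pairs or 5.93 per 1000. TRBV13-1 had 0 of 206 such pairs and TRBV13-3 had 0 of 239.

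All the close TRBV13 pairs were thus of TRBV13-2, and a set of 16-residue TRBV13-2 loops that hold glycine, glycine and arginine in a row recurred in all 3 libraries. The set was picked after the sequences were seen, so its counts are a description. It held 7 clonotypes in 7 cells of uveitis dataset 1, 2 clonotypes in 5 cells of uveitis dataset 2 and 2 clonotypes in 6 cells without uveitis. These 11 clonotypes had 6 different CDR3 beta nucleotide sequences, shown with the codons of glycine, glycine and arginine in capitals.
Uveitis dataset 1, TRBJ2-7, 3 cells: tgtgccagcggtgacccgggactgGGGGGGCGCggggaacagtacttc
Uveitis dataset 1, TRBJ2-1, 1 cell: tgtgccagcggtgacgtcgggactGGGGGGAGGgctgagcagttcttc
Uveitis dataset 1, TRBJ2-1, 3 cells: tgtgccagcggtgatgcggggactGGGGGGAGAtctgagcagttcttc
Uveitis dataset 2, TRBJ2-1, 5 cells: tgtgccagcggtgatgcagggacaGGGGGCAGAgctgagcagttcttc
Without uveitis, TRBJ2-1, 1 cell: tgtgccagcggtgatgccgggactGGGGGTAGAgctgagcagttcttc
Without uveitis, TRBJ1-6, 5 cells: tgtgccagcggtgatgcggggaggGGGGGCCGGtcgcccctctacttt
The first holds all 14 bases of TRBD2 and the fourth all 12 bases of TRBD1, and the glycine codons fall within these D bases. The longest match to TRBD2 was 12 bases in the second and in the third, 11 in the fifth and 8 in the sixth. The fourth and the fifth encode the same residues, and are the CDR3 beta shared above as a protein sequence.

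The same 3 residues were in 8 of 35 family clonotypes of uveitis dataset 1 at any loop length (22.9%, interval 10.4 to 40.1%), 2 of 29 in uveitis dataset 2 (6.90%) and 5 of 85 without uveitis (5.88%). Among other V beta genes they were in 2 of 103, 4 of 113 and 4 of 326 clonotypes (1.94%, 3.54% and 1.23%). Over distinct CDR3 beta sequences the family counts were 4 of 27, 1 of 25 and 5 of 80, against 2 of 81, 3 of 102 and 4 of 311. TRBV13-1 had none in 5, 7 and 16 clonotypes, and TRBV13-3 had 1, without uveitis, of 16 residues. Loops of 16 residues that hold these 3 residues were also in 2, 2 and 1 clonotypes of the other V beta genes.

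Of these 6 nucleotide sequences, 5 came in at least 1 cell with 1 kind of alpha chain, made of TRAV12D-3 and TRAJ23 with a CDR3 of 13 residues. The fifth listed did not, although it encodes the same loop as the fourth, which did. A productive TRAV12D-3/TRAJ23 contig was in 18 paired cells with 6 different beta chains over the 3 libraries. All 6 beta chains had a 16-residue CDR3 with glycine, glycine and arginine, 5 with TRBV13-2 and 1 with TRBV5. This holds for the gene name TRAV12D-3 as deposited, and other TRAV12 names were not included. One TRAV12-3/TRAJ23 alpha without uveitis, with a CDR3 of 12 residues, came with a 15-residue TRBV13-1 loop that lacked these residues. The TRAV12D-3/TRAJ23 sequences are shown with codons 4 and 5 in capitals, where the V and J parts meet, and are named by their beta partner.
Uveitis dataset 1, with TRBV13-2/TRBJ2-7: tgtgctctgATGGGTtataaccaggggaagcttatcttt
Uveitis dataset 1, with TRBV13-2/TRBJ2-1, 1-cell beta: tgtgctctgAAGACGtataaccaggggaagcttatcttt
Uveitis dataset 1, with TRBV13-2/TRBJ2-1, 3-cell beta: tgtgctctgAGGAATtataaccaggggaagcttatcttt
Uveitis dataset 2, with TRBV13-2/TRBJ2-1: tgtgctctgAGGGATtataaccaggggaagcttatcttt
Without uveitis, with TRBV13-2/TRBJ1-6: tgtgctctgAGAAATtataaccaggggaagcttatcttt
Uveitis dataset 2, with TRBV5/TRBJ2-1: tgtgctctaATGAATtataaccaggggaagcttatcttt
The TRBV5 beta chain that carried the last of these was:
Uveitis dataset 2, TRBV5/TRBJ2-1: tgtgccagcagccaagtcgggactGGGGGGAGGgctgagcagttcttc
The 5 alpha chains with TRBV13-2 differed only in codons 4 and 5. Those listed on lines 3 and 5 encode the same arginine and asparagine there, and differ only in the arginine codon.

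The cells behind this pairing were few. In uveitis dataset 1 each of the 3 alpha chains was in 1 cell, with 8, 6 and 4 TRA UMIs and 16, 15 and 7 TRB UMIs. In uveitis dataset 2 it was in 4 of the 5 cells with that TRBV13-2 chain, at 2 to 5 UMIs, and was the leading alpha in 1 of them. The other leading alpha of those 5 cells was TRAV8D-2/TRAJ11, so these cells were counted above as 2 clonotypes of 4 and 1 cells although cells with both alpha chains joined them. In 6 of 8 cells of uveitis dataset 2 with the TRBV5 chain it was present at 3 to 8 UMIs, and without uveitis it was in 5 of 5 cells at 2 to 9 UMIs. One CDR3 alpha of uveitis dataset 1, with 6 UMIs in its TRBV13-2 cell, was also found in 1 TRBV23 cell, at 8 UMIs, where it was assigned to another TRAV gene.

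Some TRBV13 beta chains were found with more than 1 leading CDR3 alpha in a library: 5 of 27 different CDR3 beta in uveitis dataset 1 (18.5%, interval 6.30 to 38.1%), 4 of 25 in uveitis dataset 2 (16%, interval 4.54 to 36.1%) and 4 of 80 without uveitis (5%, interval 1.38 to 12.3%). The other V beta genes had 21.3%, 7.84% and 4.18%, each within the family's interval. Cells that carried both alpha chains joined 0 of the 5, 2 of the 4 and 1 of the 4 into a single group. The rest had alpha chains that never met in a cell.

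The beta chains with most partners had 3 alpha chains. In uveitis dataset 1 there were 3 of them, the TRBJ2-7 and TRBJ2-1 loops of 3 cells shown above and a TRBV13-2/TRBJ1-4 loop, and without uveitis there was 1, the TRBV13-2/TRBJ2-5 loop shown among the leading clonotypes. The TRBJ1-4 loop is shown with the bases matched to neither V nor J in capitals.
Uveitis dataset 1, TRBV13-2/TRBJ1-4, 3 cells: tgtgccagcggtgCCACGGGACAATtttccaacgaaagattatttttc
In uveitis dataset 1 each pairing of these loops with an alpha chain was in 1 cell. The TRBJ2-7 cell with TRAV9D-1/TRAJ34 had 1 TRB UMI, and the TRBJ1-4 cell with TRAV14-1/TRAJ52 had 1 TRA UMI. Some of these alpha chains of uveitis dataset 1 were also found with other beta chains. A TRAV12D-3/TRAJ13 alpha, at 3 UMIs in 1 TRBV13-2 cell, was in 15 further cells of that library with other beta chains, 13 of them with TRBV3. A TRAV9D-1/TRAJ34 alpha was in 3 TRBV13-2 cells with 3 different CDR3 beta, 1 of them the cell with 1 TRB UMI. TRBV13 cells with several alphas per beta had a median of 12, 8 and 23.5 TRB UMIs, against 11, 11 and 15 in TRBV13 cells with 1 alpha per beta. The share of droplets with RNA of more than 1 cell among these pairings was not tested.

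Without uveitis, 1 CDR3 alpha nucleotide sequence of TRAV3D-3 and TRAJ21, with 12 residues, was shared by 3 TRBV13-2 clonotypes of 4, 2 and 1 cells, with TRBJ2-4, TRBJ2-5 and TRBJ1-3. In that library, no leading CDR3 alpha of a TRBV13 cell was also the leading CDR3 alpha of a cell with another V beta gene. In the uveitis datasets, 4 and 1 leading CDR3 alpha sequences were shared with other V beta genes in this way. Weaker TRA contigs were not searched. Cells with 2 productive TRA made 10.8%, 10.6% and 16.8% of family cells, and 10.8%, 7.94% and 16.5% of the others. Those with 2 productive TRB made 8.11%, 4.26% and 4.21% of family cells, and 5.04%, 9.75% and 3.73% of the others.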

How the data were processed

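P2/I-Ab tetramer-binding CD4 T cells were profiled with the 10x Genomics Chromium Single Cell 5′ kit version 1.1. Per the study's methods, the authors assembled contigs with Cell Ranger version 3 against a GRCm38 V(D)J reference. The deposited tables list each contig with its genes, CDR3, reads and UMIs as raw counts. All rows were of barcodes called cells.

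Contigs marked productive were read with Python 3 (pandas), and cells needed at least 1 TRA and 1 TRB. The contig with most UMIs, then most reads, stood for each chain. Shares carry 95% Clopper-Pearson intervals, and a count of 0 allows up to 3 counts. These intervals do not cover the spread between mice. Germline segments came from GENCODE transcripts of GRCm38, and kept bases were the longest match from each end. The steps were tested on simulated data, where 5 of 5 values came back. The mRNA libraries of the same sorts were not analysed here.

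The members, the lists and the descriptions were chosen with earlier results of these data known. Named items were the 3 members, the 2 nearest V beta genes, the 2 J beta, 3 TRAV and 2 TRAJ genes in most family clonotypes, the 3 largest clonotypes per library, any sequence found in several libraries and beta chains with at least 3 alphas. The sets built on glycine, glycine and arginine and on TRAV12D-3/TRAJ23 were chosen after their sequences were seen. Alternatives counted every TRB, only cells with 1 chain of each kind, cells without TRA, contigs with at least 2 UMIs, and clonotypes by V gene and CDR3 protein or by CDR3 nucleotides alone.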

Additional observations from a re-analysis of the deposited data

How the results depend on the processing

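Of 216 alternative values over 32 results, 24 could not move by construction: 16 that leave out a uveitis dataset, since such a shift is always under the SD of 2 pools, and 8 shares of cells under another clonotype definition. Of the other 192, 188 stayed within the interval or SD of the main value. These bounds were wide, so staying within them is a weak check. With cells without a TRA included, the uveitis mean of the expanded share went from 32.0% to 53.4%, which was within its SD of 30.0 points. The 4 that moved all came from including cells without a TRA, which makes a clonotype by its TRB alone. The expanded share of TRBV13 cells then became 42.1% in uveitis dataset 1, 64.7% in uveitis dataset 2 and 25.5% without uveitis, so that both uveitis datasets lay above the library without uveitis, and the uveitis means of TRBV13-2 and TRBV13-3 among family clonotypes became 56.6% and 20.7%. This alternative joins by construction cells that share a beta chain and differ in their alpha chain. Leaving out each uveitis dataset in turn moved the uveitis mean of the family from 14.5 to 21.0% of cells, from 20.4 to 25.4% of clonotypes and from 10.8 to 53.2% expanded. Without the largest TRBV13 clonotype of each library, an alternative chosen after seeing the data, the expanded shares were 5.71%, 38.9% and 11.1%.

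With 29 to 85 family clonotypes per library, shares of single J or alpha genes had wide intervals, and 1 clonotype changed cell shares of TRBV13-1 in uveitis dataset 2. Each library pooled several mice, so the mice behind a clonotype, and sharing between mice of a pool, were not resolved. Disease state cannot be told apart from pool with 2 pools against 1. Cell Ranger's choice between near-identical TRAV copies was taken as deposited.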
